A study of Mus musculus with 82 samples.

Results

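Glycolysis and the response to low oxygen were followed in mouse aortic vascular smooth muscle cells (aVSMC) through 33 genes of the 55401 in the count tables. They comprise 20 genes of glucose uptake, glycolysis and the handling of its products, 3 genes of oxygen sensing, and 10 targets of hypoxia-inducible factor (HIF) outside glycolysis. Each gene was chosen by its symbol for its known role in these processes, with earlier results of these data known. Of the 33, 32 had enough counts to be tested at both times. Egln1, a prolyl hydroxylase that senses oxygen, was listed at 0 in all 82 libraries. The glycolytic enzymes Pkm and Pgk1 were likewise listed at 0 in each library and are not among the 33.

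The cells were primary aVSMC of C57BL/6 mice, cultured in low-glucose DMEM for up to 7 passages, and serum and supplements were withdrawn during the last 24 h ahead of stimulation. EGF was used at 10 µg/L and stimulates the EGF receptor, angiotensin II (AngII, 10 nM) acts on its receptor AT1R, and U46619 (1 µM), a stable thromboxane analog, on the thromboxane receptor. After 24 h incubation, 7 groups of 6 cultures each, 1 culture from each of 6 mice, had received no stimulus (control), a single stimulus, EGF with AngII or with U46619, or all 3. The 48 h incubation had 6 treatments in 2 batches of 5 culture sets, where a set is the cultures that share a replicate number. Each batch had controls, EGF, a second stimulus and both together, the second being U46619 in the EGF/U46619 batch and AngII in the EGF/AngII batch. U46619 was therefore given at 48 h in 1 batch only. The labels give 5 mouse numbers for these 10 sets, so that sets share mouse numbers. In the EGF/U46619 batch, replicates 1 and 4 have the same number. The authors' methods instead give every replicate its own mouse, and this difference could not be settled from the counts.

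The total count per library lay between 16483529 and 20818809 at 24 h, and between 19936925 and 33916114 at 48 h. Levels are given in FPM, the counts of a gene scaled to a common library size, and, where genes are set against each other, in FPKM, which divides FPM by the length of the exons in kilobases. A gene is called a DEG where its FDR, the Benjamini-Hochberg adjusted p over all genes tested, was under 0.05 in both edgeR and DESeq2, with a mean of at least 5 FPM in a group compared. Log2-fold changes, their standard errors (SE) and the FDR shown are those of edgeR. "Rose" and "fell" are used only of DEGs, and a difference between groups is also described by the number of mice or culture sets that had it. The comparisons with control share the control libraries of their time.

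A control library stood apart at 48 h, that of replicate 4 in the EGF/AngII batch. Its deviations from the group mean ran against those of the other 3 cultures of its set, with correlations across genes of −0.426, −0.409 and −0.193, whereas the other 57 pairs of cultures within sets were above 0.1. It held 109.7 FPM of Adm against 582 to 622 in the stimulated cultures of the same set, and 60.3 FPM of Slc2a1 against 146 with EGF, 180.98 with AngII and 144 with EGF+AngII. The summed markers of endothelium came to 2046 FPM in it and to 266 to 278 FPM in those 3. Its chi-square per degree of freedom against replicate 2 was 48.73 in the controls, where the same pair of replicates had 344.2 with EGF, 347.3 with AngII and 422.4 with EGF+AngII. Whether it belongs to its labelled set was not settled. Without this library, each count of members among the DEGs at 48 h stayed within 1.5 times its value, and the calls of Slc2a1 and Vegfa with U46619 and of Bnip3 and Gpi1 with EGF+U46619 were lost, at 0.76, 0.51, 0.76 and 0.41. At 24 h all 126 pairs of cultures within a mouse were above 0.1, with a median of 0.779.

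The cells expressed smooth muscle markers. The summed FPM of 8 of them was 1256, 2628 and 5380 (lowest, median and highest library) in 24 h controls, mostly from Acta2, while Myh11 had a median of 43.6 FPM, and Tagln and Cnn1 were listed at 0 in each library. With U46619 the sum was 4426, 11980 and 15180 and Acta2 and Lmod1 were among the DEGs. Of 7 fibroblast markers, 6 fell with U46619, from a summed 395, 790.2 and 3153 FPM to 160.8, 302 and 1892, with Pdgfra the most abundant in controls. Summed endothelium markers, led by Pecam1 and with Cdh5 listed at 0, were at 4.85, 189.6 and 1760 FPM in controls and at 2.64, 153.7 and 1605 with U46619, and 0 of the 5 tested were DEGs. The cultures of mouse 6 held the highest sums and those of mice 1 and 2 the lowest. Leukocyte markers, mainly Lyz2, summed to 20.9, 74.5 and 114 FPM in controls and 23.3, 36.4 and 76.7 with U46619, where Lyz2 fell and Csf1r rose, and Cd3e was listed at 0. Adipocyte markers, led by Adipoq, summed to 0.0525, 1.65 and 1024 FPM in controls and 0, 0.487 and 464 with U46619, with the highest value in mouse 6 in both groups, and Adipoq and Plin1 fell. With EGF+U46619 and with all 3 stimuli, all 7 fibroblast markers, Adipoq and Plin1 fell, as did Cidec with EGF+U46619, Acta2 rose, as did Smtn with all 3, and Csf1r and Lyz2 were DEGs. The part of these markers in the results on glycolysis and HIF targets was not tested. Fewer cells of a type and less RNA per cell cannot be told apart in bulk RNA.

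Glycolysis turns glucose into pyruvate in the cytosol, and a cell can reduce the pyruvate to lactate and export it instead of oxidizing it in mitochondria. HIF is a transcription factor whose alpha subunit is hydroxylated by prolyl hydroxylases and degraded when oxygen is present. When oxygen is short, it accumulates and raises the transcription of most glycolytic genes and of genes of vessel growth, acid-base balance, collagen hydroxylation and mitophagy. Vascular smooth muscle is known for producing much of its lactate while oxygen is present.

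U46619 moved most of these genes within 24 h. Among the 32 tested, 22 were DEGs, 19 of which rose and 3 fell, or 68.8% of members where 27.6% of all 14653 genes were DEGs (13.5% up and 14.1% down). Those that rose were Slc2a1 of the 2 glucose transporters, 7 of the 13 glycolytic enzymes, Ldha, Pdk1 and Slc16a3, Hif1a and Egln3, and 6 of the 10 HIF targets outside glycolysis. The enzymes Pfkm and Eno2 and the target Adm fell. Without the mouse as replicate block 10 members were called, and Pdk1, Slc16a3, Eno2, Hif1a, Egln3, Bnip3, Vegfa, P4ha1, P4ha2, Ankrd37, Adm and Mif were not. All-gene DEGs of that fit are not given here, so whether members lost calls more often than other genes cannot be read. With 1 mouse left out at a time, 20 to 22 members were called. The DEGs of all genes then ranged from 2510 to 4636, against 4044 with all mice. The median log2-fold change was 0.64 over the 20 glycolytic members and 0.45 over the 10 HIF targets, beside −0.06 over all genes.

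Slc2a1 encodes GLUT1, the glucose transporter of most cultured cells. Its level was 21.1, 47.1 and 71.5 FPM (lowest, median and highest of 6 libraries) in controls and 67.2, 134 and 414 FPM with U46619. The groups overlapped by a few FPM, with the highest U46619 value in mouse 5. The log2-fold change was 1.82 (SE 0.28, FDR 2.1e-05), and the gene was higher in 6 of 6 mice. Slc2a3, a second glucose transporter, was at a median of 0.648 FPKM in controls against 13.4 FPKM for Slc2a1, and its log2-fold change of 0.28 (FDR 0.39) was not called.

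Hk2, the inducible hexokinase that traps glucose in the cell, had the largest log2-fold change of the members. Controls had 10, 15.5 and 38.6 FPM and U46619 cultures 37.5, 79.3 and 198 FPM, so that the highest control reached just above the lowest stimulated culture. It rose by 2.37 (SE 0.41, FDR 8e-05) and was higher in 6 of 6 mice. Hk1, the constitutive hexokinase, had a log2-fold change of 0.14 (FDR 0.45). In FPKM, the median of Hk2 went from 2.59 in controls to 13.3, and that of Hk1 was 15.7 and 17.9, with overlapping libraries between the 2 genes in the U46619 group.

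The subunits of phosphofructokinase, which catalyses the committed step, differed from each other. Pfkl, the liver-type subunit, rose by 1.14 (SE 0.21, FDR 0.00012), and Pfkm, the muscle-type subunit, fell, at −0.70 (SE 0.14, FDR 0.00041), while Pfkp, the platelet-type subunit, stood at 0.15 (FDR 0.44). Pfkm was at 40.8, 74.5 and 111 FPM in controls and at 29.6, 44.7 and 69.9 FPM with U46619, lower in 6 of 6 mice with overlapping ranges. Median levels of Pfkl, Pfkm and Pfkp were 24.2, 22.3 and 5.09 FPKM in controls, and 49.9, 13.4 and 5.38 FPKM with U46619. Pfkfb3, whose product makes the activator fructose 2,6-bisphosphate, had a log2-fold change of 0.36 (FDR 0.23).

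Of the 7 members from aldolase to enolase, 5 rose. Aldoa (aldolase) rose by 0.67, Tpi1 (triosephosphate isomerase) by 1.04, Gapdh (glyceraldehyde-3-phosphate dehydrogenase) by 1.24, Pgam1 (phosphoglycerate mutase) by 1.24 and Eno1 (enolase) by 1.47 on the log2 scale, with edgeR FDRs from 1.4e-05 to 0.0042, each in 6 of 6 mice. Eno1 was at 489, 721 and 1179 FPM in controls and 1189.6, 2036 and 2469.8 FPM with U46619. For Tpi1, Gapdh, Pgam1 and Eno1 each U46619 library lay above each control library, whereas the other members overlapped. The share of all genes separated in this way, here or in the groups described below, is not given. Gpi1, glucose-6-phosphate isomerase, had 0.20 (FDR 0.35) and Aldoc, at a median of 0.141 FPKM in controls, had −0.38 (FDR 0.53), neither of them a DEG.

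Eno2, the second enolase, went the other way from Eno1. It was at 4.88, 37.1 and 76.4 FPM in controls and 5.98, 26 and 55.2 FPM with U46619, ranges that overlapped almost entirely, and it fell, at −0.60 (SE 0.23, FDR 0.039), lower in 5 of 6 mice. Its call was lost without mouse 1, 2, 3 or 5, at −0.38, −0.48, −0.59 and −0.69, and in a fit of only the groups compared (−0.56).

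Of the genes of lactate formation and export, Ldha and Slc16a3 rose. Ldha, the lactate dehydrogenase subunit of glycolytic tissues, was at 409.7, 544 and 1049.6 FPM in controls and 919, 1632 and 1979.5 FPM with U46619, with 1 control, that of mouse 6, inside the range of the stimulated cultures. It rose by 1.45 (SE 0.21, FDR 1.7e-05). Slc16a3, the lactate exporter MCT4, was at 1.75, 10.7 and 54.5 FPM and at 4.69, 44.6 and 242 FPM with U46619, a spread between mice far wider than for Ldha, and it rose by 2.02 (SE 0.38, FDR 0.00016). Both were higher in 6 of 6 mice.

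Pdk1, a kinase that inhibits pyruvate dehydrogenase in mitochondria, was at 10.2, 18.9 and 34.8 FPM in controls and 13.8, 29 and 68.8 FPM with U46619. It rose by 0.60 (SE 0.13, FDR 0.00095) in 6 of 6 mice although the groups overlapped. Slc16a1, the more widely expressed lactate carrier MCT1, had a log2-fold change of 0.59 (FDR 0.12) and was not a DEG.

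In controls the glycolytic members spanned a wide range per length. Aldoa, Pgam1, Tpi1, Ldha and Eno1 had medians of 339.9, 173.6, 168.1, 164.4 and 134 FPKM, whereas Hk2, Pdk1 and Slc16a3 had 2.59, 2.44 and 2.01. Among the latter, Hk2 and Slc16a3 had the largest log2-fold changes. With U46619 the medians of the first 5 were 573, 385, 333, 493.2 and 379 FPKM.

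**Figure D1:**
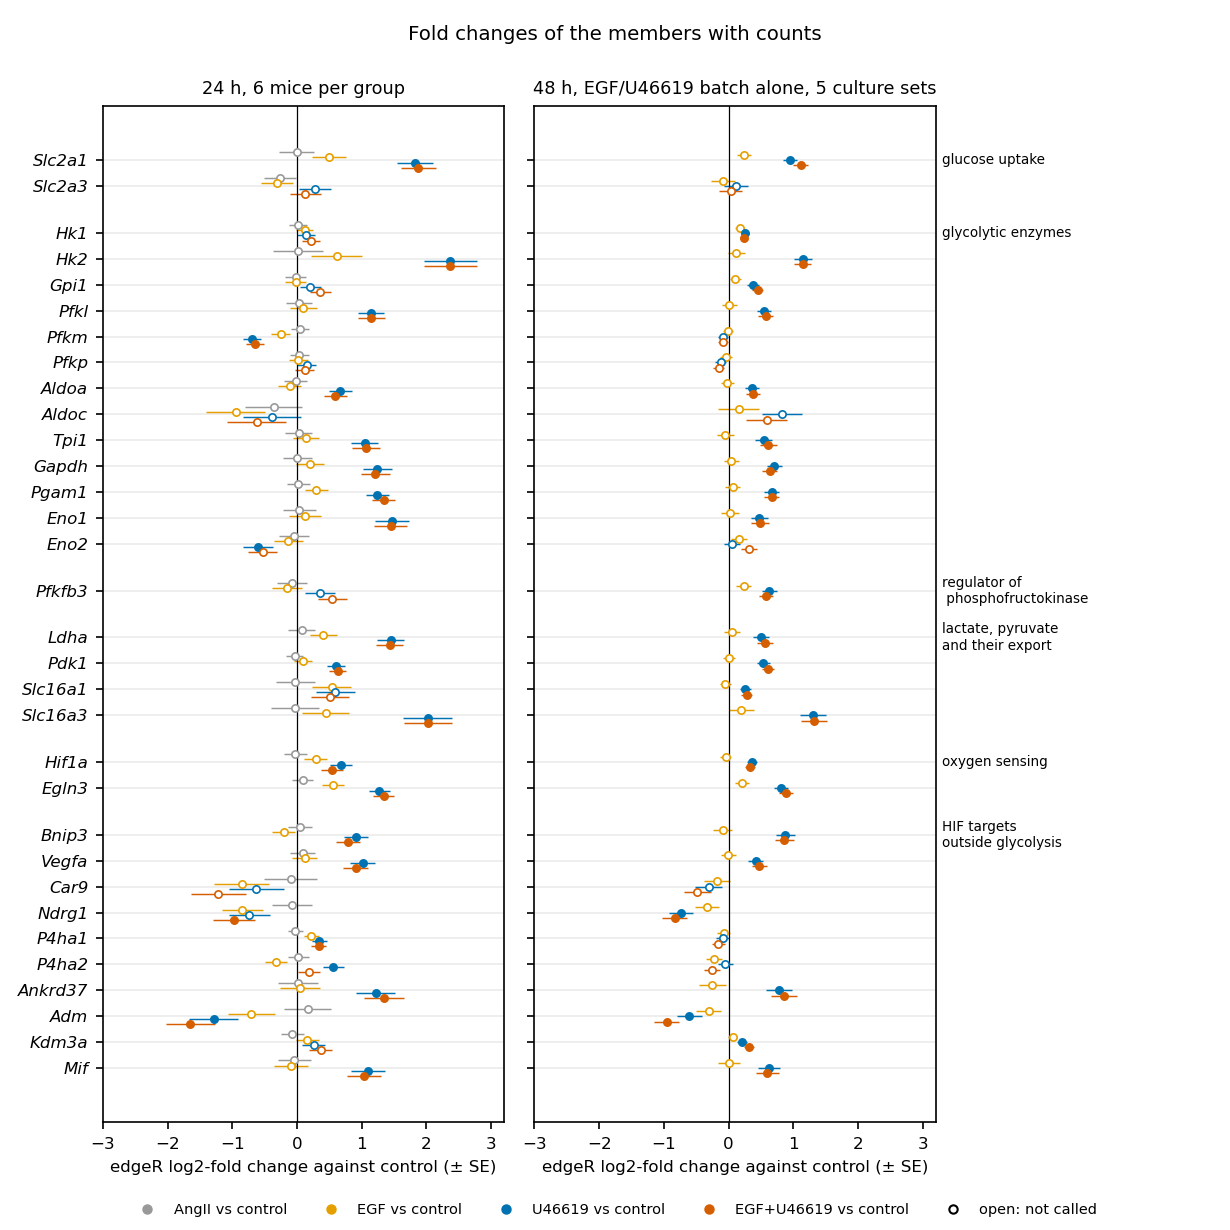
Log2-fold change of each member against control (x axis, with SE), at 24 h for 4 incubations and at 48 h for EGF, U46619 and EGF+U46619 within the EGF/U46619 batch. Filled symbols are DEGs and open symbols are not. Hk2 reached 2.37 with U46619 at 24 h and Adm −1.29, while EGF alone had 0 filled symbols.

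Of oxygen sensing, Hif1a and Egln3 were tested and both rose. Hif1a, the regulated subunit of HIF, was at 46.5, 93.3 and 197 FPM in controls and 62.2, 170.5 and 247 FPM with U46619. The ranges overlapped widely, and it rose by 0.68 (SE 0.17, FDR 0.0033) in 6 of 6 mice. This is the level of its mRNA, and the protein was not measured here. Egln3, a prolyl hydroxylase of HIF that is itself a HIF target, was at 3.2, 15.6 and 42.7 FPM in controls and 7.83, 32.1 and 90.6 FPM with U46619. Mice differed more than 10-fold in its level, yet it was higher in 6 of 6 mice and rose by 1.27 (SE 0.17, FDR 4.6e-06), the smallest FDR of the members.

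The HIF targets outside glycolysis did not move as 1 group. Bnip3, Vegfa, P4ha1, P4ha2, Ankrd37 and Mif rose, Adm fell, and Car9, Ndrg1 and Kdm3a were not DEGs. Vegfa, the growth factor of vessels, was at 57.1, 96.8 and 188.7 FPM in controls and 139.6, 197 and 365 FPM with U46619. The upper controls overlapped the lower stimulated cultures, and it rose by 1.01 (SE 0.19, FDR 0.0002) in 6 of 6 mice.

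Ankrd37, a small ankyrin protein known as a HIF target, was at 1.62, 2.57 and 4.9 FPM in controls and 1.04, 9.23 and 13.3 FPM with U46619, and rose by 1.21 (SE 0.31, FDR 0.003), higher in 5 of 6 mice. Mif, a cytokine and tautomerase, was at 163.5, 201 and 446 FPM in controls and 285, 542 and 702 FPM with U46619. It rose by 1.09 (SE 0.26, FDR 0.0017) in 6 of 6 mice, and at 727 FPKM had the highest median of the 33 with U46619. For both genes the upper controls lay within the range of U46619. The call of Ankrd37 was lost in a fit of only the groups compared (1.15), and those of Ankrd37 (1.45) and Mif (1.07) without the mouse as replicate block.

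Bnip3, which mediates the removal of mitochondria, rose by 0.91 (SE 0.19, FDR 0.00041). The subunits of collagen prolyl hydroxylase had smaller changes, P4ha2 rising by 0.56 (SE 0.17, FDR 0.0091) and P4ha1 by 0.34 (SE 0.12, FDR 0.022). The call of P4ha1 was lost without mouse 1, 4 or 5, at 0.30, 0.29 and 0.35, and with no low-count filter (0.34). Kdm3a, a histone demethylase, stood at 0.26 (FDR 0.28).

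Adm, the gene of the vasodilator peptide adrenomedullin, was the only HIF target among the 10 that fell with U46619, while Ndrg1 and Car9 also had negative log2-fold changes. Its level was 73.9, 153.4 and 290.1 FPM in controls and 19.2, 57.9 and 119.6 FPM with U46619, and it fell, at −1.29 (SE 0.38, FDR 0.0081). Each mouse had less Adm with U46619 than in its control, though the groups overlapped. The call was lost in a fit of only the groups compared (−1.30) and without the mouse as replicate block (−1.34). Ndrg1, a stress-responsive gene of differentiation, was at 98.1, 131 and 279 FPM in controls and 21, 85.4 and 175.9 FPM with U46619. It was also lower in 6 of 6 mice, at −0.74 (SE 0.32), with an FDR of 0.067 in edgeR and 0.045 in DESeq2, so that it was not a DEG. Car9, the carbonic anhydrase widely used as a marker of hypoxia, was near the floor of detection, at 1.23, 2.43 and 3.71 FPM in controls and 0.174, 1.71 and 2.26 FPM with U46619, and its log2-fold change of −0.63 (FDR 0.25) was not called.

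**Figure D2:**
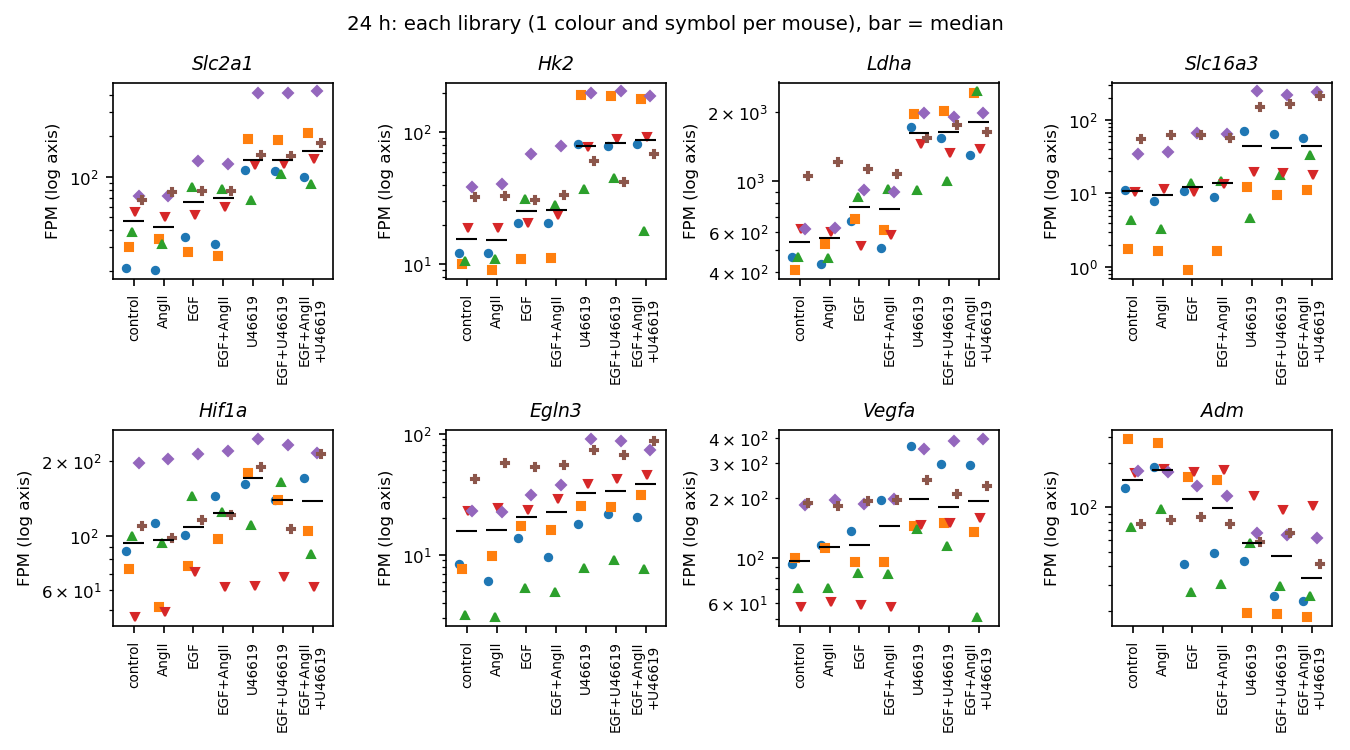
FPM (log axis) of 8 members in each of the 6 libraries of the 7 groups at 24 h; points are libraries and bars are medians. Slc2a1, Hk2, Ldha, Slc16a3, Egln3 and Vegfa have higher medians in the 3 groups with U46619, and the median of Adm is 153.4 FPM in controls and 57.9 FPM with U46619.

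EGF was also combined with U46619 at 24 h. Against control, 21 members were DEGs (65.6%, of which 18 rose and 3 fell), where 33.1% of all genes were, with medians of 0.61 for the 20 glycolytic members, 0.35 for the 10 HIF targets and −0.05 for all genes. Without the mouse as replicate block, Pdk1, Slc16a3, Hif1a, Egln3, Bnip3, Vegfa, P4ha1, Ndrg1 and Mif were not called. The call of P4ha1 was also lost in a fit of only the groups compared (0.33). Slc2a1 stood at 104, 133 and 413 FPM, Hk2 at 42.2, 83.4 and 204 and Ldha at 1002, 1649 and 2026 FPM. The first pair lay above each control library, as did Pfkl, Tpi1, Gapdh, Pgam1 and Eno1. Their log2-fold changes were 1.88 (SE 0.27, FDR 5.7e-06), 2.37 (SE 0.41, FDR 4.1e-05) and 1.43 (SE 0.21, FDR 6.7e-06), each in 6 of 6 mice.

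The other glycolytic DEGs with EGF+U46619 were Pfkl (1.15), Aldoa (0.59), Tpi1 (1.07), Gapdh (1.21), Pgam1 (1.34), Eno1 (1.45), Pdk1 (0.63) and Slc16a3 (2.03), which rose, and Pfkm, which fell, at −0.65. Eno2 (−0.53, FDR 0.061) and Pfkfb3 (0.54, FDR 0.055) were not called. Hif1a rose by 0.54 (SE 0.17, FDR 0.014), higher in 5 of 6 mice, and Egln3 by 1.34 (SE 0.17, FDR 8.2e-07). Among the HIF targets, Bnip3 (0.79), Vegfa (0.91), P4ha1 (0.33), Ankrd37 (1.34) and Mif (1.04) rose, and P4ha2 had 0.18 (FDR 0.39).

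Adm was at 19.1, 47.1 and 96.6 FPM with EGF+U46619 and fell, at −1.65 (SE 0.38, FDR 0.00083), lower in 6 of 6 mice. Ndrg1, at 18.9, 86.8 and 117 FPM, was called here and fell, at −0.97 (SE 0.32, FDR 0.015), also lower in 6 of 6 mice. Car9 was at 0.359, 0.629 and 3.15 FPM, under the minimum of 5 FPM, with a log2-fold change of −1.22 (FDR 0.024). Some calls were lost with 1 mouse left out. They were Aldoa without mouse 2 or 5 (0.50 and 0.52), P4ha1 without mouse 1 or 4 (0.27 and 0.29), Hif1a without mouse 1 (0.51) and Ndrg1 without mouse 3 (−0.85).

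The direct comparison of EGF+U46619 with U46619 asked what EGF adds. It gave 0 DEGs among members and 0% of all genes, and 1 member, P4ha2 (log2-fold change −0.37), had an unadjusted p under 0.05 in edgeR and 1 in DESeq2. The interaction, the log2-fold change of the combination minus the sum of those of EGF and of U46619, also had 0 member DEGs and 0% of all genes, with 1 member under an unadjusted p of 0.05 in each tool. It was Egln3, at −0.49 (SE 0.23). The edgeR and DESeq2 calls taken alone were 0 for both comparisons.

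With all 3 stimuli, 23 members were DEGs (71.9%, of which 19 rose and 4 fell) where 34.3% of all genes were. Far fewer members were called without the mouse as replicate block and in a fit of only the groups compared. Those counts are given with the dependence on the processing. The median was 0.70 over glycolytic members, 0.31 over HIF targets and −0.04 over all genes. Slc2a1 was at 88.6, 156.1 and 428 FPM and Hk2 at 17.8, 87.1 and 189.4 FPM, with log2-fold changes of 1.93 and 2.30. Ldha (1.68), Slc16a3 (2.24), Ankrd37 (1.77) and Mif (1.43) rose, and so did Gpi1 (0.40), which was not called with U46619 alone or with EGF+U46619. Pfkm (−0.72), Eno2 (−0.67), Ndrg1 (−1.15) and Adm (−1.86) fell. Adm was at 18, 33.5 and 103 FPM in this group. The library of mouse 3 stood apart from the others of the group, with chi-square per degree of freedom of 570.1 to 780.9 against each, where pairs of the others had 105.3 to 239.9. Without mouse 3 the count of member DEGs was 26, among 5418 in all.

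No member met the criteria for a DEG with EGF, AngII or EGF+AngII at 24 h. EGF alone gave 0 members where 0.0273% of all genes (4) were DEGs, 4 members had an unadjusted p under 0.05 in edgeR and 6 in DESeq2, and DESeq2 taken alone called 1, Egln3. Egln3 was at 5.34, 20.5 and 53.1 FPM with EGF, higher in 6 of 6 mice, with a log2-fold change of 0.56 (SE 0.17) and an FDR of 0.1 in edgeR and 0.049 in DESeq2. Without mouse 6 the count of member DEGs was 1, among 338 DEGs in all. Ndrg1 was at 40.8, 87 and 103 FPM, lower in 6 of 6 mice at −0.85 (SE 0.32, FDR 0.16), Slc2a1 at 27.7, 65.2 and 129.8 FPM and 0.50 (FDR 0.33), and Hk2 at 0.61 (FDR 0.41).

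AngII gave 0 members and 0% of all genes, with 0 members under an unadjusted p of 0.05 in edgeR and in DESeq2 and 0 by either tool alone. Log2-fold changes of the members with AngII ran from −0.36 to 0.17. EGF+AngII gave 0 members where 3.11% of all genes were DEGs, with 5 members under an unadjusted p of 0.05 in edgeR (Pfkm, Hif1a, Egln3, Ndrg1 and P4ha2) and 8 in DESeq2. By DESeq2 alone Egln3 and Ndrg1 were called, at edgeR values of 0.53 (FDR 0.058) and −0.88 (FDR 0.09). Without mouse 6 the count of member DEGs was 1 here too, among 1115 in all, and without mouse 1, 2, 3 or 5 no gene was a DEG, against 455 with all mice and 476 without mouse 4. EGF+AngII against EGF had 0 members and 0% of all genes, with 0 members under an unadjusted p of 0.05 in either tool and 0 by either alone.

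Set against EGF rather than control, the U46619 groups gave fewer DEGs in all and nearly as many members. EGF+U46619 against EGF had 18 members (56.2%, all rising) where 13.2% of all genes were DEGs, and U46619 against EGF had 18 (17 up and Pfkm down at −0.44) where 11.2% were. Without the mouse as replicate block these member counts were 3 and 1, and the DEGs of all genes in that fit are not given here. Hk2 rose by 1.76 and 1.76 in these comparisons, Slc2a1 by 1.38 and 1.33, Egln3 by 0.78 and 0.72, and P4ha2 by 0.51 and 0.88. Pfkfb3 rose by 0.70 (SE 0.23, FDR 0.033) with EGF+U46619, and had 0.51 (FDR 0.14) with U46619. Adm was not called against EGF, at −0.94 (FDR 0.077) with EGF+U46619 and −0.58 (FDR 0.32) with U46619. Without mouse 1, 2, 4 or 5, the DEGs of all genes were 1066, 723, 1093 and 1062 for EGF+U46619 and 876, 600, 882 and 903 for U46619, against 1932 and 1645 with all mice. Without mouse 3 they were 2752 and 2473, and without mouse 6 they were 2075 and 1642.

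Whether HIF targets outside glycolysis moved with the glycolytic genes was also read mouse by mouse. With U46619 the median over the 20 glycolytic members was above 0 in 6 of 6 mice, from 0.11 to 1.21 on the log2 scale with a middle value of 0.85. Over the 10 HIF targets it was above 0 in 6 of 6 mice as well, from 0.01 to 0.70, with a middle value of 0.32. With EGF+U46619 the ranges were 0.51 to 1.33 and 0.10 to 0.73, each above 0 in 6 of 6 mice. With all 3 stimuli the glycolytic median was above 0 in 6 of 6 mice and that of the targets in 4 of 6. The difference between the 2 groups of genes was not tested.

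**Figure D3:**
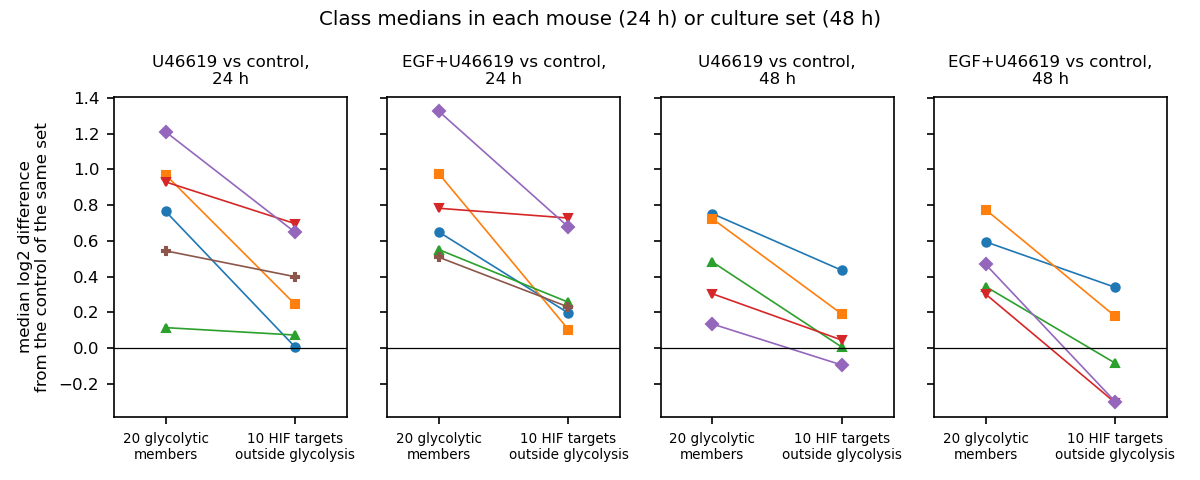
Median log2 difference (y axis) from the control of the same mouse (24 h) or culture set (48 h), for U46619 and EGF+U46619. In each panel the 20 glycolytic members are on the left and the 10 HIF targets outside glycolysis on the right. A line joins the points of a mouse or set. All points of the glycolytic members lie above 0, and at 48 h those of the HIF targets lie between −0.31 and 0.44.

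At 48 h the members were fewer among the DEGs when both batches were fitted together with the mouse number of the labels. U46619 then gave 7 members (21.9%), all rising, where 3.7% of all 15796 genes were DEGs: Slc2a1 (0.81), Hk2 (1.26), Tpi1 (0.63), Gapdh (1.03), Pgam1 (0.62), Vegfa (0.53) and Mif (0.76). EGF+U46619 gave 11 (34.4%) where 6.3% of all genes were, Slc2a1 (0.97), Hk2 (1.26), Tpi1 (0.69), Gapdh (0.95), Pgam1 (0.61), Vegfa (0.58), Mif (0.73), Gpi1 (0.43) and Bnip3 (0.79) rising, and Ndrg1 (−0.97) and Adm (−0.99) falling. The medians with U46619 were 0.39 for glycolytic members, 0.15 for HIF targets and −0.03 for all genes. With the batch as a further term beside the mouse, the calls of Ndrg1 (−0.79), Adm (−0.87), Gpi1 (0.43) and Vegfa (0.46) with EGF+U46619 and of Vegfa with U46619 (0.41) were lost. Without the replicate block, those of Slc2a1 (0.88), Tpi1 (0.63) and Vegfa (0.53) with U46619 were lost. So were those of Gpi1 (0.43), Adm (−0.50), Bnip3 (0.92), Ndrg1 (−1.02) and Vegfa (0.58) with EGF+U46619. A fit of only the groups compared lost Tpi1 (0.59), Mif (0.73) and Vegfa (0.55) with U46619. With EGF+U46619 it lost Gpi1 (0.42), Adm (−0.91), Bnip3 (0.78), Mif (0.70), Ndrg1 (−0.97) and Vegfa (0.58). In the fit with the mouse alone, Ldha (0.42, FDR 0.15), Slc16a3 (1.04, FDR 0.16) and Egln3 (0.02, FDR 0.99) were not called with U46619.

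Within the EGF/U46619 batch alone, with the culture set as the replicate block, 24 members (75%) were DEGs with U46619 where 21.3% of 14634 genes were, 22 of which rose and 2 fell. EGF+U46619 likewise gave 24 (22 up and 2 down) where 25.8% were. Medians with U46619 were 0.52 over glycolytic members, of which 15 rose, 0.08 over HIF targets, of which 5 rose and 2 fell, and −0.01 over all genes. This fit and the fit of both batches differ in the replicate block and in the libraries. Both batches with the culture set as the block gave 20 members with U46619, among 1546 DEGs in all, and the batch as a further term beside the mouse gave 7, among 213. Egln3 in the controls was at 72.2, 35.9, 46.7, 17.5 and 7.08 FPM in the EGF/AngII batch and 23.2, 13.3, 9.56, 11 and 8.7 FPM in the EGF/U46619 batch. It rose by 0.81 (SE 0.11, FDR 8.1e-05) within the batch, and U46619 libraries of replicates 1 to 5 held 51.3, 26.5, 15.6, 20.8 and 10.2 FPM, above the control of the same set in 5 of 5.

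Slc2a1 in the EGF/U46619 batch was at 61.4, 85.2, 52.4, 69.1 and 62.5 FPM in the controls of replicates 1 to 5 and at 124, 160, 124, 134 and 93.1 FPM with U46619, and it rose by 0.95 (SE 0.11, FDR 2.5e-05). Hk2 was at 31.5, 34.2, 20.4, 43.5 and 33 FPM in controls and at 84.8, 75, 67.8, 75.2 and 55 FPM with U46619, and it rose by 1.15 (SE 0.14, FDR 2.9e-05). For both genes each U46619 library lay above each control library of the batch. Slc16a3 was at 15.6, 45.5, 10.5, 11.1 and 17.1 FPM in controls and 59.2, 107, 34.1, 26.3 and 19.3 FPM with U46619. It was highest in replicate 2 in both groups, which overlapped, and rose by 1.30 (SE 0.20, FDR 0.00023).

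Ldha was at 874, 999.5, 742, 752 and 767 FPM in the controls of the batch and 1543, 1631, 1041, 890.1 and 854 FPM with U46619, higher in 5 of 5 sets with the largest gaps in replicates 1 and 2. It rose by 0.50 (SE 0.12, FDR 0.0073). Eno1 was at 1074, 1175, 879.7, 1055 and 717 FPM in controls and 1726, 2186, 1178, 1209 and 799 FPM with U46619, higher in 5 of 5 sets, and rose by 0.48 (SE 0.14, FDR 0.015). Pdk1 was at 25.8, 36.6, 15.4, 15.4 and 29 FPM in controls and 47.8, 61.6, 21.8, 20.5 and 31.1 FPM with U46619, and rose by 0.54 (SE 0.10, FDR 0.00078). The groups overlapped for all 3 genes.

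The remaining glycolytic DEGs within the batch were Hk1 (0.25), Gpi1 (0.38), Pfkl (0.55), Aldoa (0.36), Tpi1 (0.54), Gapdh (0.71), Pgam1 (0.67), Pfkfb3 (0.63) and Slc16a1 (0.26), all rising. Pfkm and Eno2, which fell at 24 h, stood at −0.08 (FDR 0.44) and 0.05 (FDR 0.8). Pfkm was at 84.8, 66.2, 63.9, 58.6 and 70.4 FPM in controls and 64, 70, 61.7, 57.5 and 69.3 FPM with U46619, with the largest difference in replicate 1. The difference between 24 h and 48 h was not tested.

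Hif1a was at 112, 129, 72.9, 81.2 and 148.3 FPM in the controls of the batch and 151.3, 148.2, 107, 90.2 and 206 FPM with U46619, and rose by 0.36 (SE 0.08, FDR 0.0046), higher in 5 of 5 sets. Vegfa was at 181.8, 142, 116, 182.5 and 190.3 FPM in controls and 257, 234, 191, 178.9 and 226 FPM with U46619. It rose by 0.42 (SE 0.11, FDR 0.013), higher in 4 of 5 sets, with 182.5 and 178.9 FPM in the exception, replicate 4. Mif was at 173.4, 407, 402, 375 and 239 FPM and 532, 729, 438, 450.3 and 309 FPM, and rose by 0.63 (SE 0.18, FDR 0.015).

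Adm fell within the batch as it had at 24 h. It was at 98.7, 124, 366, 147 and 360.4 FPM in controls, 68.4, 55.2, 265, 77.1 and 342 FPM with U46619 and 65.6, 38.2, 235, 68.4 and 199.5 FPM with EGF+U46619, in each set lower than its control, though replicates 3 and 5 stayed far above the others. It fell, at −0.61 (SE 0.19, FDR 0.027) with U46619 and at −0.96 (SE 0.19, FDR 0.0013) with EGF+U46619. Ndrg1 was at 198, 59.9, 102, 75.8 and 94.8 FPM in controls and 77.5, 70.3, 45, 44.8 and 62 FPM with U46619, lower in 4 of 5 sets, and fell, at −0.74 (SE 0.19, FDR 0.009). Ankrd37, at 3.69, 3.94, 3.49, 3.32 and 1.83 FPM in controls and 11.5, 7.04, 3.63, 7.61 and 1.65 FPM with U46619, rose by 0.78, Bnip3 by 0.88 and Kdm3a by 0.21. P4ha1 (−0.09) and P4ha2 (−0.05), DEGs at 24 h, and Car9 (−0.31) were not called.

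**Figure D4:**
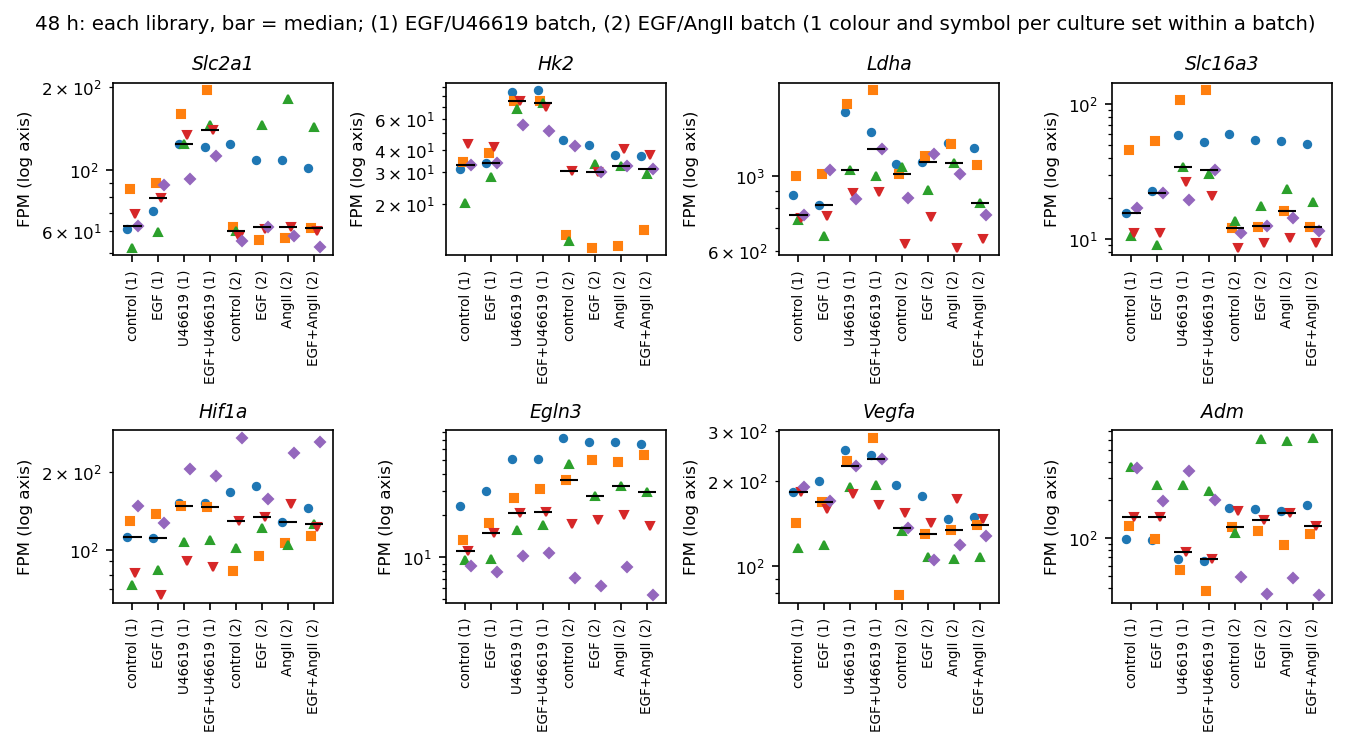
FPM (log axis) of 8 members in each library at 48 h, by treatment and batch; points are libraries and bars are medians. Slc2a1 and Hk2 in the U46619 libraries lie above each control of the EGF/U46619 batch, and Egln3 in the controls of the EGF/AngII batch reaches 72.2 FPM.

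Set by set at 48 h, the glycolytic median with U46619 was above 0 in 5 of 5 sets, from 0.13 to 0.75, and that of the HIF targets in 4 of 5, from −0.10 to 0.44. With EGF+U46619 the glycolytic median was above 0 in 5 of 5 sets and that of the targets in 2 of 5, with a middle value of −0.08. In the fit of both batches the median of the HIF targets turned negative without replicate 1 of the EGF/U46619 batch, at −0.018 with U46619 and −0.0527 with EGF+U46619. The summed endothelium markers of that replicate were 870.4 FPM in its control and 799 FPM with U46619, and 870.4, 117, 132, 209 and 19.8 FPM over the 5 controls. Its adipocyte markers summed to 33.47 FPM in the control and 1.948 FPM with U46619. Summed smooth muscle markers were at 3865, 1628, 4565, 8114 and 1772 FPM in the 5 controls and 3558, 1675, 4957, 5615 and 1185 FPM with U46619. Summed fibroblast markers were at 388, 969, 922, 305 and 2885 FPM in the controls of replicates 1 to 5 and at 192, 252, 648, 254 and 2045 FPM with U46619, and Pi16 and Scara5 fell in the fit of both batches. Lyz2 had a median of 78.9 FPM in controls and 30.4 FPM with U46619, and 0 of the 6 leukocyte markers tested were DEGs. The part of these cell types in the result was not tested.

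The count of members at 48 h moved with single culture sets of the EGF/U46619 batch in the fit of both batches. With U46619 it was 2 without replicate 1 and 4 without replicate 3, against 7 with all sets. With EGF+U46619 it was 7 without replicate 1, 7 without replicate 2 and 6 without replicate 3, against 11. The DEGs of all genes with U46619 were 310, 229, 145, 262 and 540 without replicates 1 to 5, against 585, and with EGF+U46619 they were 891, 615, 362, 587 and 731, against 995. Of the 7 called with U46619, Gapdh alone was called whichever replicate was left out. Slc2a1 lost its call without replicate 1, 2, 3 or 4 of that batch (0.77, 0.79, 0.73 and 0.74), and Vegfa without replicate 1, 2, 3 or 5 of it (0.48, 0.51, 0.50 and 0.50) or replicate 2, 4, 5 or 6 of the EGF/AngII batch (0.46, 0.49, 0.53 and 0.54). Hk2 lost it only without replicate 3 (1.20) and Tpi1, Pgam1 and Mif only without replicate 1 (0.45, 0.48 and 0.61).

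With EGF+U46619 at 48 h, calls were lost as follows in the fit of both batches. In the EGF/U46619 batch they were Slc2a1 without replicate 3 (0.86), Vegfa without 1, 2 or 3 (0.55, 0.50 and 0.55), Adm without 2 or 4 (−0.86 and −0.99), Bnip3 without 1, 2 or 3 (0.53, 0.66 and 0.79), Ndrg1 without 1, 3, 4 or 5 (−1.02, −0.90, −0.85 and −0.91) and Gpi1 without any 1 of the 5 (0.46, 0.38, 0.46, 0.43 and 0.38). In the EGF/AngII batch they were Bnip3 without replicate 2, 5 or 6 (0.74, 0.77 and 0.82), Ndrg1 without 1, 4 or 6 (−0.92, −0.85 and −0.97) and Gpi1 without 4 or 6 (0.40 and 0.41).

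Against EGF at 48 h, EGF+U46619 had 8 member DEGs (25%, 7 up and Adm down at −0.94) where 4.43% of all genes were, and U46619 had 6 (18.8%, all up) where 2.96% were. The first count was 3, 5, 3 and 5 without replicate 1, 2, 3 or 4 of the EGF/U46619 batch, and the second was 1, 3 and 1 without replicate 1, 2 or 3. With single replicates left out, the DEGs of all genes ranged from 233 to 692 for EGF+U46619, against 699. For U46619 they ranged from 124 to 497, against 467. Without the replicate block the member counts were 2 and 1, and in a fit of only the groups compared they were 0 and 0. For those fits the DEGs of all genes are not given here. Within the EGF/U46619 batch alone, EGF+U46619 had 22 (21 up and 1 down) where 13.8% of all genes were, and U46619 had 19, all up, where 11.1% were. In the fit of both batches, EGF+U46619 against U46619 and the interaction each had 0 members and 0% of all genes, 0 members under an unadjusted p of 0.05 in either tool, and 0 by edgeR or DESeq2 alone. Within the batch alone both had 0 members, by each tool alone too. There, 1 member in edgeR and 0 in DESeq2 had an unadjusted p under 0.05 for EGF+U46619 against U46619, and 0 and 1 for the interaction, and of all genes 1 and 0 were DEGs.

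EGF, AngII and EGF+AngII had 0 member DEGs each at 48 h, and 0%, 0% and 0% of all genes, by edgeR and DESeq2 together and by each alone. At an unadjusted p under 0.05, edgeR and DESeq2 both had 0 members for EGF and for AngII and 1 for EGF+AngII, Gapdh at −0.51. In the EGF/U46619 batch alone, EGF had 0 members where 0.0547% of all genes (8) were DEGs, with 2 members under an unadjusted p of 0.05 in edgeR and 2 in DESeq2 and 0 by either alone.

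The other genes of these pathways were taken from lists of 28 further glycolysis genes, 9 HIF regulators, 33 HIF targets, 27 genes of pyruvate oxidation and the TCA cycle, and 7 of the pentose phosphate pathway. With U46619 at 24 h, 12 of the 29 HIF targets tested rose and 4 fell, with a median of 0.40, where 13.5% of all genes rose and 14.1% fell, with a median of −0.06. Those that rose included Tfrc (2.08), the transferrin receptor, Ak4 (1.71) and Flt1 (1.60), a VEGF receptor, and Selenbp1 (−2.94), Ppp1r3c (−2.11), Kdm4b (−0.55) and Ccng2 (−0.46) fell.

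Of the 16 further glycolysis genes tested, 3 rose (Eno3 0.74, Pgp 0.69 and Tigar 0.41) and 3 fell (Ldhb −1.01, Galm −0.62 and Slc2a8 −0.55), with a median of −0.15. Ldhb encodes the lactate dehydrogenase subunit of oxidative tissues, and it was lower in 6 of 6 mice. It also fell with EGF+AngII (−0.74), which holds no U46619. That call was lost when some single mice were left out, since no gene was then a DEG with EGF+AngII. Among the 9 regulators of HIF, Siah2 (0.71), a ubiquitin ligase of prolyl hydroxylases, rose and Hif3a (−0.74) fell, with a median of −0.17. The mean of Hif3a passed the minimum of 5 FPM, though its median was 3.62 FPM in controls.

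Pyruvate oxidation and the TCA cycle had 4 genes up (Dld 0.55, Mdh2 0.48, Dlst 0.42 and Fh1 0.40) and 3 down (Pdk2 −1.22, Pdp1 −0.77 and Mpc2 −0.53) of 21 tested, at a median of 0.06. Pdk2 also fell with EGF+AngII (−0.93), a call likewise lost when some single mice were left out. In the pentose phosphate pathway Rpe (0.49) rose and 0 fell of 6 tested, with a median of 0.16. With EGF+U46619 the counts up and down were 2 and 4 for further glycolysis genes, 1 and 2 for HIF regulators, where Epas1 (−0.47) fell too, 11 and 4 for HIF targets, 4 and 4 for the TCA cycle, and 1 and 0 for the pentose phosphate pathway, of the same numbers tested, where 17% of all genes rose and 16.1% fell.

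At 48 h in the fit of both batches, the DEGs with U46619 among the other HIF targets included Gys1 (0.69) and Pgm2 (0.38), which rose, and Ppp1r3c (−2.01) and Selenbp1 (−1.54), which fell. Tigar (0.47) rose among glycolysis genes and Cs (0.45), citrate synthase, in the TCA cycle, where 2.28% of all genes rose and 1.42% fell, whereas 0 of the HIF regulators and of the pentose phosphate genes were DEGs. Within the EGF/U46619 batch alone, U46619 gave 3 up and 1 down of 16 further glycolysis genes tested, 0 and 1 of 9 regulators, 11 and 2 of 28 HIF targets, 4 and 4 of 21 TCA cycle genes and 2 and 0 of 6 pentose phosphate genes, where 11.4% of all genes rose and 9.83% fell.

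The promoters of the members were searched for ACGTG and GCGTG, the cores of the hypoxia response element, on both strands of windows of 300 bases, 250 before and 50 after the start of transcription, taken from RefSeq on GRCm38.p6. Of 31 members with a promoter in the table, 22 held ACGTG, 21 GCGTG, 28 either, and 6 CACGTG, the E-box, which contains ACGTG on both strands. Eno2, Gpi1 and Tpi1 held neither core in any of their windows. Counted by window, 36 of 46 member promoters held either core, as did 43.8% of all 32851 promoters, with ACGTG in 19.6%, the other core in 32.4% and the E-box in 7.15% of them. A match is a stretch of letters, and no binding was measured here. Slc2a3 and Ndrg1 are named without a sequence.

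The 250 bases before the start are printed for a glycolytic gene that rose (Hk2), the lactate dehydrogenase gene that rose (Ldha) and an oxygen sensor that rose (Egln3). Also printed are a target that rose although this window holds neither core (Vegfa) and the target that fell (Adm). The other window of Vegfa, not printed, holds 1 ACGTG and 1 GCGTG. Capitals mark the cores on either strand. The printed stretches lie at chr6:82774455-82774704 on the minus strand for Hk2 (2 ACGTG), chr7:46845554-46845803 on the plus strand for Ldha (5 ACGTG, of which 2 pairs each form a CACGTG), chr12:54203875-54204124 on the minus strand for Egln3 (1 ACGTG), chr17:46032378-46032627 on the minus strand for Vegfa, and chr7:110627407-110627656 on the plus strand for Adm (2 GCGTG).
Hk2: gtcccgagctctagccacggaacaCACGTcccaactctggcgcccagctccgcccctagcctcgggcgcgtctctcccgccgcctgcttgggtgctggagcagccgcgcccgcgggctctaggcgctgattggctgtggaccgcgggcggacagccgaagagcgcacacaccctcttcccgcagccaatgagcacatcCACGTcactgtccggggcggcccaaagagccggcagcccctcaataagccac
Ldha: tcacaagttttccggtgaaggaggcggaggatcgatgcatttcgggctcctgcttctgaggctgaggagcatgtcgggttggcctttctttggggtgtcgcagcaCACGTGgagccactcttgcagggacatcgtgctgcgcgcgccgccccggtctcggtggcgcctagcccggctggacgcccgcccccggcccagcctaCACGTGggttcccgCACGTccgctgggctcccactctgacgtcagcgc
Egln3: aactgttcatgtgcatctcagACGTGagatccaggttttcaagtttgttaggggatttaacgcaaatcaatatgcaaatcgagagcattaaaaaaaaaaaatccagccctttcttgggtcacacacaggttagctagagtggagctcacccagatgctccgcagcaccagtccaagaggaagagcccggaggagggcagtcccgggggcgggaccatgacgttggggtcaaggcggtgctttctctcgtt
Vegfa: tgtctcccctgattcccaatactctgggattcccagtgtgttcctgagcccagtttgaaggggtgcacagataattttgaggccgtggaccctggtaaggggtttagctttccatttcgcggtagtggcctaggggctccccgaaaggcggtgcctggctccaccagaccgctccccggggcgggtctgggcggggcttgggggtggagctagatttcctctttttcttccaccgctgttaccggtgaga
Adm: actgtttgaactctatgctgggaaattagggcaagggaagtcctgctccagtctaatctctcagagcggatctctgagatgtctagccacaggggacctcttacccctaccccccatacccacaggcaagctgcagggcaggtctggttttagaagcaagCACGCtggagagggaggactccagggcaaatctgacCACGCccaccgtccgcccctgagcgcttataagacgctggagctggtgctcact

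Some counts are shared with other loci, because reads that align to several places were counted. Gapdh has 43 near-identical copies in the annotation, 39 of them pseudogenes, which together held a median of 7249 FPM in 24 h controls and 18060 FPM with U46619, where Gapdh itself held 133 and 308 FPM. The most abundant copy was Gm7336. The 3 copies of Eno1 held 105 FPM in controls and 311 FPM with U46619, mainly Eno1b, and the copy of Pgam1 held 33.9 and 73.1 FPM. Copies of Tpi1, Ldha, Bnip3 and Gpi1 had summed medians under 5 FPM in controls.

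Exons of other genes overlap some members, and the strand of a read was not used in counting. Overlaps cover 26.4% of the exon bases of Ankrd37 (Lrp2bp and Ufsp2), 22.3% of Bnip3 (Gm45507), 11.5% of Gpi1 (Gm26762), 10.7% of Pfkm (Gm26513 and Senp1), 9.29% of Car9, 8.43% of Ndrg1 and 8.11% of Hif1a. Hk2, Ldha, Slc16a3, Egln3, Vegfa, Adm, Pdk1, Eno1, Eno2, Pgam1 and Mif share 0 exon bases with another annotated gene. The part of such reads in the changes was not tested.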

How the data were processed

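RNA was measured in 82 cultures of mouse aVSMC, 42 at 24 h and 40 at 48 h. The deposited values are counts per gene and library, made by the authors with HISAT2 2.1.0 and featureCounts from paired-end reads, with reads that align to several places counted and without regard to strand. The 3 count files were joined to the labels by column name, and each of the 82 columns matched 1 library.

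Genes were kept by filterByExpr of edgeR 4.0.16 at each time, with 14653 genes at 24 h and 15796 at 48 h. The edgeR quasi-likelihood test with TMM scaling and the DESeq2 1.42.0 Wald test were fitted to all libraries of a time, with the mouse as a term (R 4.3.3, limma 3.58.1). A DEG had a Benjamini-Hochberg FDR under 0.05 in both tools, a mean of at least 5 FPM in a compared group, and passed filterByExpr at both times. FPM were computed per time with edgeR's cpm function, which scales counts by TMM library sizes, and FPKM divide them by the exon length of the annotation. Differences per mouse or culture set were taken between log2 of FPM plus 0.5. For 48 h a second fit used the EGF/U46619 batch alone with the culture set as the term. The procedure was tested on simulated data.

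The members and lists were chosen with earlier results of these data known, so lists are described by counts and medians. Each member is named. Values per library are given for 16 members, which are Slc2a1, Hk2, Ldha, Pdk1, Slc16a3, Hif1a, Egln3, Vegfa, Adm, Car9 and those with the largest changes of each class among the DEGs. Genes of the other lists, and any further values per library, were chosen after their values were seen.

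Deviations from group means were correlated within culture sets as a check of the labels, with 0.1 as the limit. Duplicated libraries were looked for in 185 pairs within groups, where the lowest chi-square per degree of freedom was 42.9. Depth had a median of 19695633 counts at 24 h and 25922414 at 48 h. Markers of smooth muscle, fibroblasts, endothelium, leukocytes and adipocytes were summed. Near-identical copies were found with blastn 2.17.0 at 95% identity over at least 300 bases. Promoters and positions are from GRCm38.p6 annotation. Tables and plots were made with Python 3.11.15, NumPy 2.4.6, pandas 2.3.3 and Matplotlib 3.10.9. Alternatives changed the tool, the scaling, the filters, the replicate block, the libraries in the fit and, by leaving each out in turn, the replicates.

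These are mRNA levels of cultured cells, and glucose use, lactate, oxygen and HIF protein were not measured here. Each group holds 5 or 6 cultures, and a gene that was not called may still have changed by less than this number can show. At 48 h U46619 was given in a single batch, so its comparison within that batch and the comparison with controls of both batches are both given. Pkm, Pgk1 and Egln1, listed at 0, were not analysed here. The labels give no age.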

Additional observations from a re-analysis of the deposited data

Results flagged for a closer look

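A library counted as apart when its gap to the nearest other library of its group was large against the range of the group (Dixon's criterion at 95%). Chance alone sets apart about 1 in 20 groups. Here 315 groups were tested, for the 16 members with values per library and the 5 sums of markers, and 64 held such a value where 15.8 are expected by chance. The groups share mice and are not independent. No explanation was tested.

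Mouse 5 stood apart at 24 h for Slc2a1, with 413.7 FPM with U46619, 412.9 FPM with EGF+U46619 and 427.7 FPM with all 3 stimuli. It also did for Hk2, with 68.58 FPM with EGF and 79.03 FPM with EGF+AngII, and for summed smooth muscle markers, with 9105 FPM with EGF and 9714 FPM with EGF+AngII. Mouse 6 stood apart for Ldha in the control (1050 FPM) and with AngII (1213 FPM), for Eno1 with AngII (1330 FPM) and for Car9 with all 3 stimuli (2.551 FPM). Mouse 3 did for Mif with EGF (460.4 FPM) and EGF+AngII (515.6 FPM) and for Ndrg1 in the control (278.7 FPM).

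At 48 h in the EGF/AngII batch, replicate 1 was apart for Slc2a1 in the control (124.2 FPM) and for Slc16a3 in the control (60.2 FPM), with EGF (54.32 FPM) and with EGF+AngII (50.73 FPM). Replicate 2 was apart for Hk2 with AngII (11.6 FPM), and replicate 4 for Adm with AngII (582.4 FPM), EGF (606.4 FPM) and EGF+AngII (622 FPM). Replicate 6 was apart for Hif1a with EGF+AngII (263.4 FPM) and for Ankrd37 with EGF (2.158 FPM). In the EGF/U46619 batch, replicate 2 was apart for Slc16a3 in the control (45.46 FPM) and Mif with EGF+U46619 (831.6 FPM), and replicate 1 for Car9 with EGF+U46619 (2.074 FPM) and Ndrg1 with EGF (164.7 FPM).

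Summed endothelium markers were highest in mouse 6 in all 7 groups at 24 h, with 1760 FPM in the control, 1650 with EGF, 1551 with AngII, 1605 with U46619, 1749 with EGF+AngII, 2032 with EGF+U46619 and 1706 with all 3. Its adipocyte markers summed to 1024, 816.8, 1373, 463.5, 871.3, 68.73 and 96.28 FPM in the same order of groups. Fibroblast markers stood apart in mouse 3 in the control (3153 FPM), with AngII (4036 FPM), U46619 (1892 FPM) and EGF+U46619 (981.1 FPM). Leukocyte markers did in mouse 4 with U46619 (76.7 FPM).

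In the EGF/U46619 batch at 48 h, replicate 1 was apart for endothelium markers in the control (870.4 FPM), with EGF (958.3 FPM), EGF+U46619 (892.2 FPM) and U46619 (799.1 FPM), and for adipocyte markers in the control (33.47 FPM). Replicate 5 was apart for fibroblast markers in the control (2885 FPM), with EGF+U46619 (1680 FPM) and with U46619 (2045 FPM). In the EGF/AngII batch, leukocyte markers were apart in replicate 1 with AngII (573.8 FPM), EGF (715.1 FPM) and EGF+AngII (888 FPM). Adipocyte markers were apart in replicate 5 with AngII (62.7 FPM), in the control (62.67 FPM), with EGF (44.14 FPM) and with EGF+AngII (48.06 FPM). Smooth muscle markers were apart in the control of replicate 5 (6364 FPM) and fibroblast markers in that of replicate 6 (2989 FPM).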

How the results depend on the processing

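The 61 log2-fold changes of member DEGs followed here, 43 at 24 h and 18 at 48 h, kept their direction under each alternative. Across alternatives, 562 values at 24 h and 321 at 48 h stayed past the threshold, and 40 and 75 did not.

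DESeq2 alone called 1 member with EGF and 2 with EGF+AngII at 24 h, where both tools together called 0, and the requirement of at least 10 counts in every library gave 1 with EGF+AngII. Without the replicate block, the counts at 24 h were 10 with U46619, 12 with EGF+U46619, 14 with all 3 stimuli, 3 for EGF+U46619 against EGF and 1 for U46619 against EGF. The calls lost with U46619, with their log2-fold changes without the block, were Pdk1 (0.67), Slc16a3 (2.101), Eno2 (−0.62), Hif1a (0.63), Egln3 (1.24), Bnip3 (1.17), Vegfa (1.00), P4ha1 (0.34), P4ha2 (0.65), Ankrd37 (1.45), Adm (−1.34) and Mif (1.07). With EGF+U46619 they were Pdk1 (0.65), Slc16a3 (2.08), Hif1a (0.48), Egln3 (1.23), Bnip3 (1.00), Vegfa (0.91), P4ha1 (0.33), Ndrg1 (−0.96) and Mif (1.02). At 48 h without the block the counts were 4 with U46619, 6 with EGF+U46619, and 2 and 1 against EGF. The calls lost against control are named with the 48 h results, and Adm with EGF+U46619 stood at −0.50 without the block. A fit of only the groups compared gave 15 with all 3 stimuli at 24 h and, at 48 h, 4 with U46619, 5 with EGF+U46619, and 0 and 0 against EGF. With no low-count filter, the calls of P4ha1 with U46619 and with EGF+U46619 were lost at 24 h, and at 48 h those of Slc2a1 and Vegfa with U46619 and of Gpi1, Bnip3 and Ndrg1 with EGF+U46619. The fit of only the groups compared has fewer libraries, and the cause of the other differences was not tested. For the alternatives in this paragraph the DEGs of all genes are not given. Their member counts therefore cannot be set against the share of all genes.

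At 48 h the culture set as the replicate block gave 20 members with U46619, 22 with EGF+U46619, and 22 and 19 for these against EGF. The EGF/U46619 batch alone with that block gave 24, 24, 22 and 19. The batch as a further term beside the mouse gave 5 for EGF+U46619 against EGF, where the fit of both batches gave 8. For the culture set block over both batches and for the batch term, all-gene DEGs are given above only for U46619 against control.

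Leaving out 1 mouse at a time gave ranges at 24 h of 0 to 1 with EGF, 0 to 1 with EGF+AngII, 20 to 22 with U46619, 20 to 23 with EGF+U46619, 20 to 26 with all 3, 15 to 20 for EGF+U46619 against EGF and 14 to 20 for U46619 against EGF. The 1 with EGF and with EGF+AngII came without mouse 6. At 48 h the ranges over single replicates were 2 to 9 with U46619 (2 without EGF/U46619 batch replicate 1 and 4 without replicate 3), 6 to 12 with EGF+U46619 (7, 7 and 6 without replicates 1, 2 and 3), 3 to 10 for EGF+U46619 against EGF (3, 5, 3 and 5 without replicates 1 to 4) and 1 to 9 for U46619 against EGF (1, 3 and 1 without replicates 1 to 3). The other counts were 0 throughout.

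The median over HIF targets at 48 h ranged from −0.018 to 0.231 with U46619 and from −0.0527 to 0.179 with EGF+U46619, and both negative values came without EGF/U46619 batch replicate 1. At 24 h it ranged from 0.41 to 0.537 and from 0.28 to 0.422, and the glycolytic median from 0.613 to 0.758 and from 0.582 to 0.711. The glycolytic median at 48 h ranged from 0.271 to 0.474 and from 0.387 to 0.509. Leaving out the control library that stood apart was chosen after seeing the data, and it gave 6 members with U46619 and 9 with EGF+U46619. Without that library the DEGs of all genes are not given here. Depth limits genes of few counts, among them Aldoc and Car9, with a mean under 5 FPM in each 24 h group.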
